A study of Mus musculus with 40 samples.

Results

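The genes described are 10 that carry vitamin D and calcium handling in the kidney, out of the 55359 genes counted: Cyp27b1, Cyp24a1, Vdr, Casr, Pth1r, Trpv5, Calb1, S100g, Slc8a1 and Atp2b1. They were chosen by name, with earlier results of these data known, so their counts beside shares of all genes are a description. Their transcripts were followed in the right kidneys of male C57BL/6 mice that received TCDD, a dioxin that activates the aryl hydrocarbon receptor (AhR), by oral gavage at 7 doses (0.03, 0.1, 0.3, 1, 3, 10 and 30 µg/kg) in sesame oil, or sesame oil alone (vehicle). Mice were 30 days old at the first dose and 58 days old at collection, with a dose every 4 days over the 28 days between, and each of the 8 groups held 5 mice with 1 library each, 40 in all. RNA came from about 100 mg of whole frozen kidney, so that fewer cells of a type and less RNA per cell cannot be told apart. Every dose was compared with the same 5 vehicle libraries, and the comparisons are therefore not independent of each other.

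Vitamin D becomes a hormone in the kidney, where the proximal tubule enzyme CYP27B1 adds the last hydroxyl group and CYP24A1 starts the hormone's breakdown. The hormone acts through the vitamin D receptor (VDR), parathyroid hormone acts through PTH1R, and the calcium-sensing receptor CASR reads calcium itself. In the distal convoluted and connecting tubule calcium enters the cell through the channel TRPV5, is carried by the calcium-binding proteins calbindin-D28k (Calb1) and calbindin-D9k (S100g), and leaves through the sodium-calcium exchanger NCX1 (Slc8a1) and the calcium pump PMCA1 (Atp2b1).

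The libraries held 15278423 to 25575317 gene counts each, and all 10 genes were among the 17345 with enough counts to test. Levels are CPM, the gene's count scaled to a fixed library size. Differences are log2 fold changes ± standard error from edgeR, adjusted over all genes tested, and a gene is said to have risen or fallen where the adjusted p was under 0.05. Cyp1a1, the classical AhR target, rose from 2.37 ± 1.25 CPM (SD, n = 5) under vehicle to 2537 ± 436 at 30 µg/kg. Vehicle replicates 1 and 2 stood apart from the other vehicle libraries. Their summed level of 4 markers of the proximal tubule's S3 segment was 377 and 450 CPM against 1289 to 1427, and that of 6 markers of the thick ascending limb was 1261 and 1451 CPM against 2201 to 3293. The tests of the 10 genes at every dose were therefore also run without both of them. So were those of the list, marker and most alike genes at 10 and 30 µg/kg. Calls of named genes lost that way are given beside the result. At 30 µg/kg replicates 2, 3, 4 and 5 also held low S3 sums, 499, 89.3, 381 and 423 CPM. Thick ascending limb sums were 1822 and 1598 CPM in replicates 2 and 3 there. These libraries were kept, so the check removes libraries of this kind from the vehicle side only.

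At 30 µg/kg 4 of the 10 genes passed the test, 1 higher (Cyp27b1) and 3 lower (Calb1, Slc8a1 and Pth1r), while 15.9% of all genes tested did, 8.39% higher and 7.55% lower. At 10 µg/kg Cyp27b1 was higher and Calb1 and Slc8a1 were lower, with 4.82% of all genes passing (3.82% higher and 0.997% lower). At 3 µg/kg Slc8a1 alone passed, lower, with 1.09% of all genes passing (1.03% higher and 0.0634% lower). The median log2 fold change of the 10 genes was -0.01 at 30 µg/kg and that of all genes 0.01.

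No gene of the 10 passed at 0.03, 0.1, 0.3 or 1 µg/kg by edgeR. The share of all genes passing there was 0, 0, 0.00577 and 0.513% (0.507% higher at 1 µg/kg). None of the 10 passed by DESeq2 either, which called 7, 0, 3 and 132 of all genes at these doses. At an unadjusted p under 0.05 S100g and Atp2b1 stood out at 0.03 µg/kg (2), Atp2b1 at 0.1 µg/kg (1), Calb1, S100g and Slc8a1 at 1 µg/kg (3), and 0 genes at 0.3 µg/kg. Of all genes, 5.67% at 0.03, 5.53% at 0.1, 5.23% at 0.3 and 7.10% at 1 µg/kg had such a p. The heat map of fold changes shows the called cells at the upper doses.

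**Figure D1:**
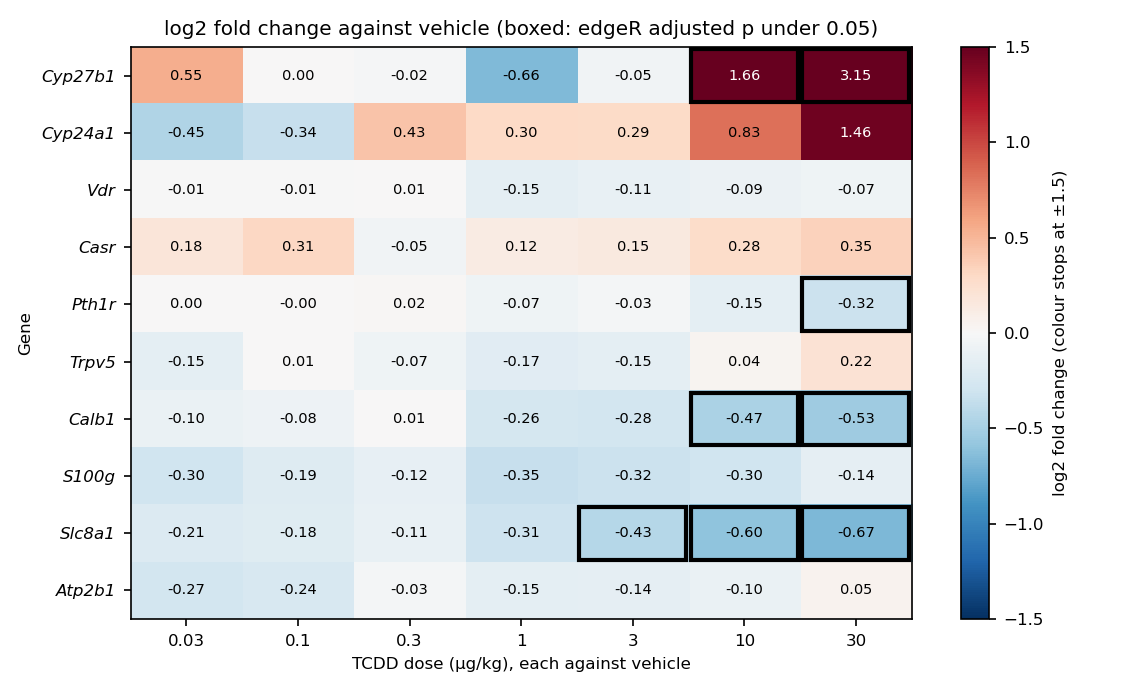
log2 fold change of each of the 10 genes (rows) at each TCDD dose in µg/kg (columns) against the shared 5 vehicle libraries, with boxes where the edgeR adjusted p was under 0.05. Cyp27b1 reaches 3.15 and Slc8a1 -0.67 at 30 µg/kg, and Vdr stays between -0.15 and 0.01 at all 7 doses.

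Cyp27b1, the activating enzyme, was low in vehicle kidneys and rose at the 2 highest doses. The 5 vehicle libraries held 5.30, 7.75, 5.66, 2.96 and 4.82 CPM, the 5 at 10 µg/kg 9.21, 9.75, 14.8, 24.0 and 26.5, and the 5 at 30 µg/kg 18.2, 27.8, 111, 59.3 and 22.1. Every library of both upper groups lay above every vehicle library, and the 30 µg/kg libraries spread over the widest range of any group. Here and wherever a group is said below to lie wholly apart from vehicle, the share of all genes doing so was not counted. The rise was 1.66 ± 0.48 at 10 µg/kg (adjusted p = 0.0393) and 3.15 ± 0.50 at 30 µg/kg (adjusted p = 2.77e-05), which is 8.90-fold. Without replicate 3, the highest library, the rise at 30 µg/kg was 2.57 (adjusted p = 0.000201).

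The call at 10 µg/kg was less firm: without vehicle replicates 1 and 2 it was lost (1.90, adjusted p = 0.0973). It was also lost when any of vehicle replicates 1, 3, 4 and 5 or 10 µg/kg replicates 4 and 5 was left out, with adjusted p up to 0.124. The numbers in the sample titles fall into 2 runs, and the rise at 10 µg/kg was 0.85 within the lower run and 2.7 within the upper, with no test. The step from 10 to 30 µg/kg, 1.49 ± 0.46, did not pass (adjusted p = 0.0732), and neither did any other of the 10 genes, while 2.7% of all genes did, 1.19% higher and 1.52% lower. At an unadjusted p under 0.05 that step held 2 of the 10, Cyp27b1 and Pth1r, beside 14.6% of all genes. DESeq2 called Cyp27b1 (adjusted p = 0.0407), and it called 618 of all genes at this step against 469 by edgeR.

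Below 10 µg/kg Cyp27b1 did not pass at any dose. By rising dose from 0.03 to 3 µg/kg the group means were 7.79 ± 6.77, 5.36 ± 2.25, 5.23 ± 2.21, 3.38 ± 0.712 and 5.17 ± 0.966 CPM. The large SD at the lowest dose came from replicates 4 and 5 at 10.6 and 18.4 CPM, above every vehicle library, beside 3 libraries between 2.09 and 4.85.

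The 250 bases before the start of Cyp27b1 and of Slc8a1, the members with the highest and the lowest fold change at 30 µg/kg, are shown because the TCDD receptor and the vitamin D receptor both act by binding DNA. They are RefSeq sequences of build GRCm38.p6, Cyp27b1 at chr10:127047996-127048245 on the plus strand and Slc8a1 at chr17:81738388-81738637 on the minus strand, with the match to GCGTG in capitals.
Cyp27b1: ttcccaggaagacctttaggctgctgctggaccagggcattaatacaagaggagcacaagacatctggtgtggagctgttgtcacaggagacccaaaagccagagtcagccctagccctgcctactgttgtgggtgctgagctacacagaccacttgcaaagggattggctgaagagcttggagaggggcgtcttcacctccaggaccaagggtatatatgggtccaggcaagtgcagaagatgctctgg
Slc8a1: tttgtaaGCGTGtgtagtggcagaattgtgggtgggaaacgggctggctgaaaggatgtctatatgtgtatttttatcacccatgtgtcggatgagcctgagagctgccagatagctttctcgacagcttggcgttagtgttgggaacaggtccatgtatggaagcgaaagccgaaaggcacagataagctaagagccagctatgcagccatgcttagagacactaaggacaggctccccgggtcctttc

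Both strands of the 300-base window from 250 bases before to 50 after each start were searched for GCGTG, the core letters of the AhR element, for the longer TNGCGTG that contains it, and for VDR-type repeats. A repeat is any 2 half-sites in the same direction, spaced by NNN, where a half-site reads AGGTCA or is one of its variants, either GGGTCA or the form GGTTCA or else AGTTCA. Windows were on hand for 8 of the 10 genes, 11 windows in all, and Cyp24a1 and Calb1 had none. GCGTG stood in 5 of the 11 windows, those of Vdr, Trpv5 and Slc8a1 and 1 each of Pth1r and Atp2b1, and in none of Cyp27b1, Casr and S100g. Of all 32851 windows of that length 32.4% held GCGTG, 5.07% held TNGCGTG and 0.0396% held a VDR-type repeat, and the 11 windows held neither of the latter. In Slc8a1 the match began 243 bases before the start. These are matches of letters in 1 window and say nothing of binding.

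Cyp24a1, the breakdown enzyme, varied widely between mice of the same group and did not pass at any dose. The vehicle libraries held 44.9, 39.1, 38.8, 25.2 and 195 CPM and the 30 µg/kg libraries 32.3, 243, 390, 110 and 170. The groups overlapped through vehicle replicate 5, the highest of its group, and 30 µg/kg replicate 1, the lowest of its own. The difference of 1.46 ± 0.71 at 30 µg/kg (95% interval 0.07 to 2.85) did not pass (adjusted p = 0.177). Without vehicle replicate 5 it was 2.35 and passed (adjusted p = 0.0298). The difference was 2.44 within the lower run of title numbers and 0.34 within the upper, which holds vehicle replicate 5, with no test. At 10 µg/kg the libraries held 96.9, 137, 307, 26.0 and 45.1 CPM, again overlapping vehicle, with a difference of 0.83 ± 0.70 (adjusted p = 0.647).

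Over all 8 groups, with dose taken as a rank from vehicle to 30 µg/kg, both enzymes passed a test for trend. Cyp27b1 rose by 0.38 ± 0.07 per rank (adjusted p = 5.15e-05) and Cyp24a1 by 0.22 ± 0.07 (adjusted p = 0.0227), beside 11% of all genes rising and 19.8% passing in either direction. In all 5 of the 10 genes passed, with Calb1, Slc8a1 and Pth1r lower (8.84% of all genes were lower). Cyp24a1's trend was lost without 30 µg/kg replicate 3 (0.17, adjusted p = 0.0882), and without the whole 30 µg/kg group the trends of Cyp27b1 (adjusted p = 0.152), Cyp24a1 (0.304) and Pth1r (0.158) did not pass.

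Set against each other within a library, Cyp27b1 stood at a median of 11.8 CPM per 100 CPM of Cyp24a1 under vehicle (2.46 to 19.8), 9.50 at 10 µg/kg (4.82 to 92.2) and 28.4 at 30 µg/kg (11.4 to 56.4). These ranges overlapped. The library with the most Cyp27b1 at 30 µg/kg, replicate 3, also held the most Cyp24a1, 390 CPM.

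**Figure D2:**
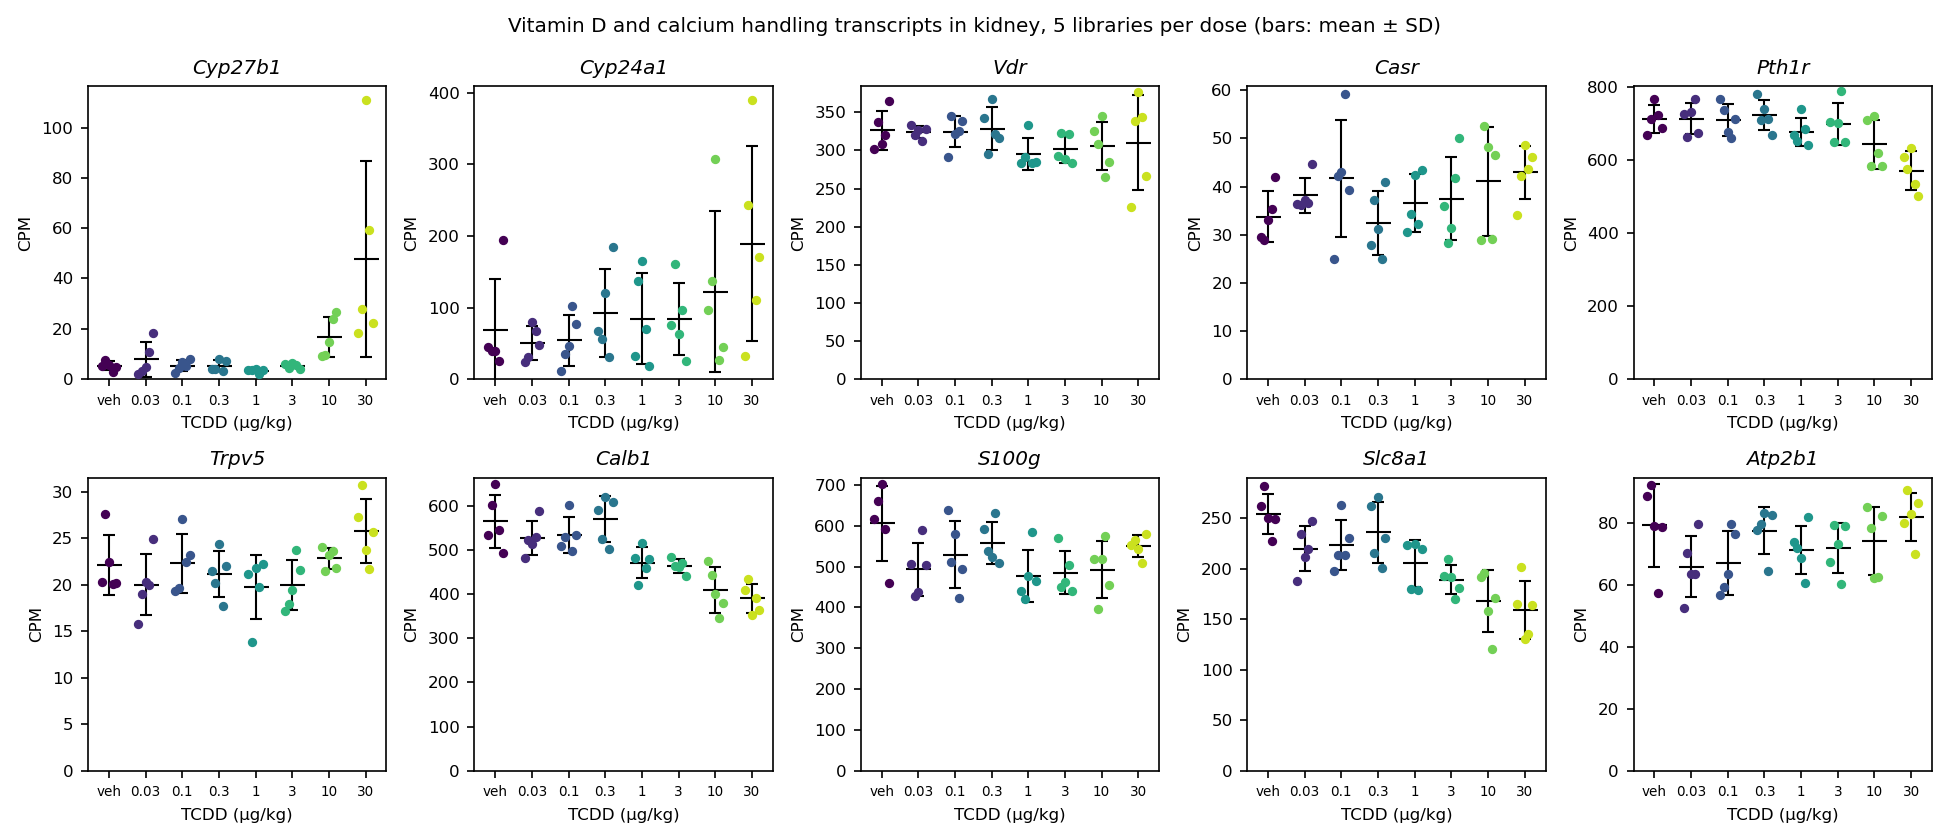
CPM of each of the 10 genes in every library (points), by TCDD dose in µg/kg, with bars for the group mean ± SD over 5 libraries (cut at 0 for Cyp24a1 under vehicle). Cyp27b1 lies above all vehicle libraries at 10 and 30 µg/kg, Calb1 lies below them from 3 µg/kg and Slc8a1 from 1 µg/kg.

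Of the 3 receptors, Pth1r fell and Vdr and Casr did not pass at any dose. Pth1r, through which parathyroid hormone acts on proximal and distal tubule, held 669, 713, 767, 724 and 688 CPM under vehicle and 608, 575, 634, 535 and 500 at 30 µg/kg. No library at 30 µg/kg reached the lowest vehicle library. The fall was 0.32 on the log2 scale (SE 0.07, adjusted p = 0.000831), a level 0.801 times that of vehicle. At 10 µg/kg the mean was 643 ± 67.3 CPM, with 2 libraries inside the vehicle range, and the difference of -0.15 ± 0.07 did not pass (adjusted p = 0.286). A share of 3.25% of Pth1r's exon bases also lies in the opposite-strand gene Myl3, and reads on those bases may have gone uncounted as ambiguous.

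Vdr, the receptor for the active hormone, held 302, 337, 308, 320 and 365 CPM under vehicle and 226, 339, 377, 344 and 266 at 30 µg/kg. The means were close, 327 ± 25.3 and 310 ± 62.2, but the 30 µg/kg libraries reached both below and above the vehicle range. The difference was -0.07 ± 0.09 (95% interval -0.24 to 0.10, adjusted p = 0.647). Across the other 6 doses Vdr's means lay between 295 and 329 CPM.

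Casr, the calcium sensor of the thick ascending limb, had a mean of 33.8 ± 5.28 CPM under vehicle and 43.0 ± 5.51 at 30 µg/kg. Of the 5 libraries at 30 µg/kg 4 lay above all vehicle libraries, from 42.2 to 48.7 CPM, and replicate 1 lay inside the vehicle range at 34.1. The difference of 0.35 ± 0.18 (95% interval -0.01 to 0.71) did not pass (adjusted p = 0.22), and without vehicle replicates 1 and 2 it was 0.22 (adjusted p = 0.595). Group means at the other doses ran from 32.4 CPM at 0.3 µg/kg to 41.8 at 0.1 µg/kg.

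In the calcium route of the distal tubule the binding protein Calb1 and the exchanger Slc8a1 fell, and the entry channel Trpv5, the second binding protein S100g and the pump Atp2b1 did not pass at any dose.

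Trpv5, the apical entry channel, held 20.3, 27.6, 22.5, 20.1 and 20.2 CPM under vehicle and 27.3, 30.7, 23.7, 21.7 and 25.7 at 30 µg/kg. Only 30 µg/kg replicate 2 exceeded the highest vehicle library. The difference was 0.22 ± 0.12 (95% interval -0.02 to 0.46, adjusted p = 0.233), on the other side of 0 from Calb1's and Slc8a1's.

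Calb1, calbindin-D28k, is the buffer that ferries calcium across the distal tubule cell. Vehicle libraries held 535, 602, 650, 547 and 494 CPM, those at 10 µg/kg 476, 445, 400, 347 and 380, and those at 30 µg/kg 409, 435, 354, 392 and 365. Neither upper group overlapped vehicle, and the share of all genes for which this held was not counted. The fall was 0.47 at 10 µg/kg (SE 0.08, adjusted p = 4.59e-05) and 0.53 at 30 µg/kg (SE 0.08, adjusted p = 2.61e-06), to 0.691 times the vehicle level. Without vehicle replicates 1 and 2 the values were -0.46 (adjusted p = 0.000835) and -0.53 (adjusted p = 3.76e-05). At 3 µg/kg all 5 libraries, 442 to 484 CPM, were already below the lowest vehicle library, but the difference of -0.28 missed the threshold (adjusted p = 0.0596), and at 1 µg/kg 4 of 5 were below.

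S100g, calbindin-D9k, was the second calcium-binding protein measured and had another dose pattern. It held 616, 660, 703, 592 and 459 CPM under vehicle and 552, 564, 544, 508 and 580 at 30 µg/kg, all 5 of these inside the vehicle range. Its group means were lower at 0.03 µg/kg (493 ± 64.8 CPM), 1 µg/kg (477 ± 63.5), 3 µg/kg (485 ± 53.6) and 10 µg/kg (492 ± 69.5) than at 30 µg/kg (550 ± 26.7). None of these passed: the difference was -0.35 at 1 µg/kg (adjusted p = 0.223), -0.30 at 10 µg/kg (0.111) and -0.14 ± 0.11 at 30 µg/kg (0.427).

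Slc8a1, the exchanger NCX1 of the basolateral membrane, fell at 3, 10 and 30 µg/kg, though the call at 3 µg/kg was not firm. The vehicle libraries held 262, 282, 250, 227 and 249 CPM, those at 3 µg/kg 193, 209, 192, 170 and 181, those at 10 µg/kg 192, 196, 158, 120 and 171, and those at 30 µg/kg 165, 202, 130, 135 and 164. From 1 µg/kg upward every library lay below every vehicle library. How many of all genes separated from vehicle in this way was not counted. At 1 µg/kg the difference of -0.31 did not pass (adjusted p = 0.385). The differences were -0.21 at 0.03, -0.18 at 0.1 and -0.11 at 0.3 µg/kg, and none passed (edgeR adjusted p = 0.886, 0.905 and 0.952).

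The fall in Slc8a1 was 0.43 at 3 µg/kg (SE 0.11, adjusted p = 0.041), 0.60 at 10 µg/kg (SE 0.11, adjusted p = 0.000261) and 0.67 at 30 µg/kg (SE 0.11, adjusted p = 2.69e-05). The call at 3 µg/kg was lost without vehicle replicates 1 and 2 (-0.36, adjusted p = 0.472). It was lost too without any single one of vehicle replicates 1, 2, 3 and 5 or of 3 µg/kg replicates 1, 3, 4 and 5 (adjusted p up to 0.157). DESeq2 called both Slc8a1 and Calb1 at 3 µg/kg, where it called 278 of all genes against 189 by edgeR. The calls of Slc8a1 at 10 and 30 µg/kg held without vehicle replicates 1 and 2 and by DESeq2. They also held in each fit without a single vehicle library or a single library of the same dose. From 10 to 30 µg/kg neither Calb1 (-0.07 ± 0.08, adjusted p = 0.78) nor Slc8a1 (-0.07 ± 0.11, adjusted p = 0.849) showed a further step that passed.

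Atp2b1, the calcium pump PMCA1, had a mean of 79.3 ± 13.5 CPM under vehicle and 82.0 ± 7.76 at 30 µg/kg, all 5 of the latter inside the vehicle range, with a difference of 0.05 ± 0.11 (95% interval -0.18 to 0.27, adjusted p = 0.844). Its lowest means were at 0.03 µg/kg (66.0 ± 9.96 CPM, adjusted p = 0.855) and 0.1 µg/kg (67.2 ± 10.3). The lowest library at 0.03 µg/kg, replicate 1 at 52.7 CPM, also held adrenal cortex markers at a summed 645 CPM. Vehicle replicate 4 was the lowest library of its group at 57.6 CPM.

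To compare levels between genes, CPM were divided by exon length in kilobases. In vehicle kidneys S100g stood first at 1263 ± 192 CPM per kb, followed by Pth1r at 243 ± 12.8, Calb1 at 117 ± 12.6 and Vdr at 57.8 ± 4.48. Below them came Cyp24a1 at 19.3 ± 20.0, Slc8a1 at 13.5 ± 1.07, Casr at 7.16 ± 1.12, Trpv5 at 6.82 ± 0.987, Atp2b1 at 5.21 ± 0.887 and Cyp27b1 at 2.06 ± 0.669. Neighbours in this order did not overlap between libraries, except that Cyp24a1 reached into the ranges of both Vdr and Slc8a1 and that Casr and Trpv5 overlapped. At 30 µg/kg Cyp27b1 stood at 18.5 ± 15.1 CPM per kb, from 7.08 to 43.1. Its lowest library lay within the ranges held there by Slc8a1 (6.93 to 10.8) and Trpv5 (6.70 to 9.47) and just below that of Casr (7.24 to 10.3), and its mean and highest library lay above all 3.

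Calb1 and Slc8a1 were each other's closest match, by highest positive correlation, among the tested genes that have a symbol. Over the 40 libraries their Spearman correlation was 0.91, and 0.73 after the group means were removed. The next closest to both were Sfrp1, a secreted antagonist of WNT signalling (0.87 with Calb1 and 0.84 with Slc8a1), and Defb1, an epithelial defensin (0.84 and 0.81). Sfrp1 fell from 166 ± 21.2 to 94.3 ± 26.0 CPM at 30 µg/kg (-0.82 ± 0.11, adjusted p = 1.8e-06) and Defb1 from 279 ± 32.0 to 176 ± 23.2 (-0.66 ± 0.09, adjusted p = 1.23e-06). All of these points share the libraries and the dose groups, so the values are a description. The most alike genes were picked with dose differences included, so their own falls partly follow from that choice.

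**Figure D3:**
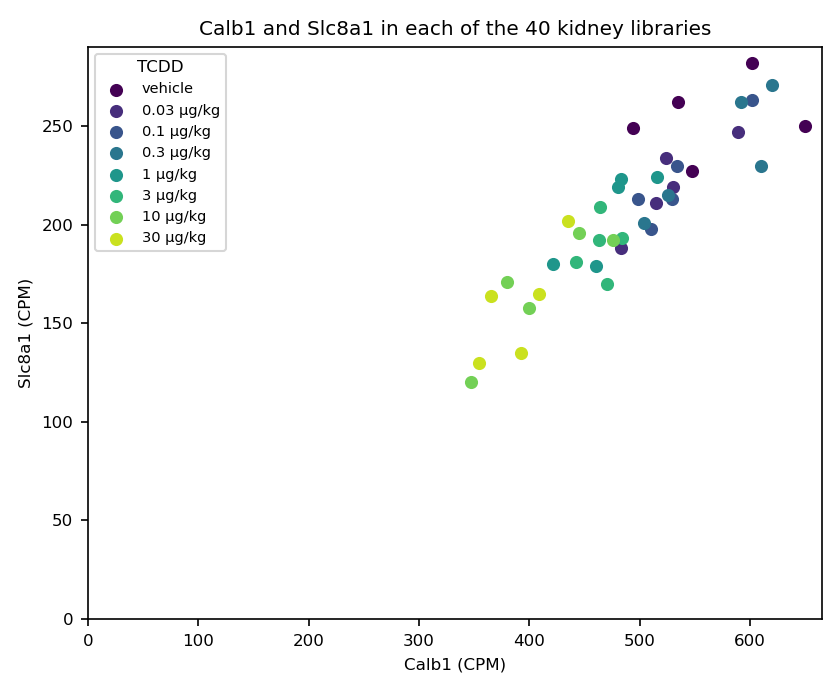
Calb1 (x axis, CPM) against Slc8a1 (y axis, CPM) in each of the 40 libraries, coloured by TCDD dose. Vehicle libraries lie at 494 to 650 CPM of Calb1 and 227 to 282 of Slc8a1, and 30 µg/kg libraries at 354 to 435 and 130 to 202.

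Trpv5 kept pace with this pair only within groups: its correlation with Calb1 was -0.02 over the 40 libraries and 0.62 after the group means were removed, and with Slc8a1 0.05 and 0.55. Closest to Pth1r were Ldha (0.85), the lactate dehydrogenase A subunit, Fads3 (0.85) and the transporter gene Slc22a18 (0.85). With group means removed these values were 0.78, 0.68 and 0.64. Ldha fell by 0.30 at 30 µg/kg (adjusted p = 0.000423), Fads3 by 0.33 (0.000113) and Slc22a18 by 0.48 (6.1e-06). Closest to Cyp27b1 were Epb41l3 (0.76), Itpr2, an intracellular calcium release channel (0.73), and Eef1akmt3 (0.73). Of these Epb41l3 (0.56 ± 0.17, adjusted p = 0.0191) and Itpr2 (0.45 ± 0.10, adjusted p = 0.000969) rose at 30 µg/kg. With group means removed the correlations with Cyp27b1 were 0.56, 0.57 and 0.57. The genes closest to Pth1r and Cyp27b1 were picked with dose differences included, so their changes with dose partly follow from that choice.

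Calls in the wider hormone axis came mainly at 30 µg/kg. The counts of the lists that follow stand beside 8.39% of all genes higher and 7.55% lower at 30 µg/kg, or 6.38% and 6.20% of the 18002 genes tested without vehicle replicates 1 and 2. Of 10 tested genes of the parathyroid hormone, FGF23 and Klotho axis, 3 fell and 1 rose at 30 µg/kg, with and without those libraries. Kl, the Klotho co-receptor through which FGF23 acts, went from 1154 ± 80.6 CPM under vehicle to 863 ± 120 at 10 µg/kg and 702 ± 172 at 30 µg/kg, with all 5 libraries of both groups below every vehicle library. Its fall was 0.42 at 10 µg/kg (adjusted p = 0.00564), lost without vehicle replicates 1 and 2 (-0.36, adjusted p = 0.0855), and 0.72 at 30 µg/kg (SE 0.10, adjusted p = 1.28e-06). The FGF receptor genes Fgfr4 (-0.45, adjusted p = 0.000101) and Fgfr1 (-0.23, adjusted p = 0.0426) fell, and the glycoprotein hormone gene Stc2 rose (0.95 ± 0.22, adjusted p = 0.00185). Pth and Fgf23 themselves, hormones made outside the kidney, were at 0 counts in the vehicle and 30 µg/kg libraries.

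Of 12 genes for uptake of vitamin D, its earlier activation and the receptor's partners, 2 rose and 1 fell at 30 µg/kg. Gc, the vitamin D binding protein, went from 31.6 ± 9.71 to 107 ± 89.7 CPM, with 4 of 5 libraries above all vehicle libraries (1.75 ± 0.32, adjusted p = 0.000171). Cubn, the cubilin receptor that takes up vitamin D bound to that protein, rose by 0.54 (adjusted p = 0.000874), and Pdia3, a disulfide isomerase also described as a membrane receptor for the hormone, fell by 0.25 (adjusted p = 0.0134). These 3 calls held without vehicle replicates 1 and 2.

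Of 8 tested phosphate transport genes, 4 fell and none rose at 30 µg/kg. Slc34a1, the main phosphate transporter of the proximal tubule and a target of parathyroid hormone, went from 7208 ± 705 to 4938 ± 1139 CPM, with no library reaching the vehicle range (-0.55 ± 0.09, adjusted p = 3.23e-05), and had fallen by 0.32 at 10 µg/kg (adjusted p = 0.0338). Without vehicle replicates 1 and 2 the call at 10 µg/kg was lost (-0.22, adjusted p = 0.369). Its scaffold proteins' genes Slc9a3r1 (-0.33, adjusted p = 0.000891) and Pdzk1 (-0.35, adjusted p = 0.0018) and the second transporter Slc34a3 (-0.61, adjusted p = 0.0304) were the other 3. Without vehicle replicates 1 and 2 only 2 of the 8 fell: Pdzk1 (adjusted p = 0.0547) and Slc34a3 (-0.31, adjusted p = 0.398) were lost. Of Pdzk1's exon bases 41.7% are shared with opposite-strand genes, so its value is uncertain.

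Of 18 other tested genes of transcellular calcium transport and of TRPV5's partners, 5 fell and 3 rose at 30 µg/kg, or 4 and 0 without vehicle replicates 1 and 2. Klk1, tissue kallikrein, a protease of the connecting tubule that activates TRPV5, fell furthest: 1790 ± 239 CPM under vehicle, 1149 ± 174 at 10 µg/kg and 867 ± 82.4 at 30 µg/kg, with neither dose overlapping vehicle. Its fall was 0.64 (adjusted p = 2.69e-06) and 1.05 (SE 0.09, adjusted p = 2.87e-11). The others named by the rule were Fkbp4 (-0.55, adjusted p = 1.92e-05), an immunophilin that binds TRPV5, the calcium channel Trpv4 (-0.38, adjusted p = 0.00116) and Bspry, which lowers TRPV5 activity (-0.32, adjusted p = 0.00636). Named after their values were seen, the remaining 4 were the calcium pump Atp2b2 (-0.63, adjusted p = 0.033), the mitochondrial exchanger Slc8b1 (0.40, 0.0191), the TRPV5 carrier S100a10 (0.28, 0.0247) and the kinase Sgk1 (0.87, 0.0398). All 4 were lost without the 2 vehicle libraries, with adjusted p from 0.0838 to 0.151.

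Of 11 tested magnesium handling genes of the distal convoluted tubule, 4 fell and 1 rose at 30 µg/kg, or 3 and 1 with vehicle replicates 1 and 2 left out. Egfr, the receptor through which EGF promotes magnesium uptake (-0.35, adjusted p = 0.00463), Fxyd2, the gamma subunit of the sodium pump (-0.28, adjusted p = 0.0166), and Pcbd1, an enzyme that recycles tetrahydrobiopterin (-0.27, adjusted p = 0.0102), fell. The other that fell was Cnnm2, also tied to magnesium transport and named after its value was seen (-0.25, adjusted p = 0.0455). Leaving out the 2 vehicle libraries lost Pcbd1 (adjusted p = 0.0647) and Cnnm2 (0.156) and added Egf, the growth factor itself (-0.51, adjusted p = 0.0238). Slc41a3, a magnesium transporter, rose by 0.62 ± 0.21 (adjusted p = 0.0376).

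Of 9 tested genes of the paracellular route of the thick ascending limb, none passed by edgeR or DESeq2 at 30 µg/kg, and 0 had an unadjusted p under 0.05, beside 27.6% of all genes. The lowest p-values there belonged to Kcnj1, the potassium channel ROMK (-0.16, adjusted p = 0.194), and Bsnd, a chloride channel subunit (-0.17, adjusted p = 0.385). In the trend over dose rank 1 of the 9 passed, Kcnj1, lower (-0.04 ± 0.01, edgeR adjusted p = 0.00268), beside 8.84% of all genes lower. Without vehicle replicates 1 and 2, Cldn19, a claudin of this route named after its value was seen, was lower (-0.68, adjusted p = 0.0303), against -0.28 (adjusted p = 0.5) with them. At 10 µg/kg the genes passing in all 6 lists were Kl, Slc34a1 and Klk1, 1 in each of 3 lists, of which Klk1 alone passed without vehicle replicates 1 and 2, and at 3 µg/kg and below there were none by edgeR.

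**Figure D4:**
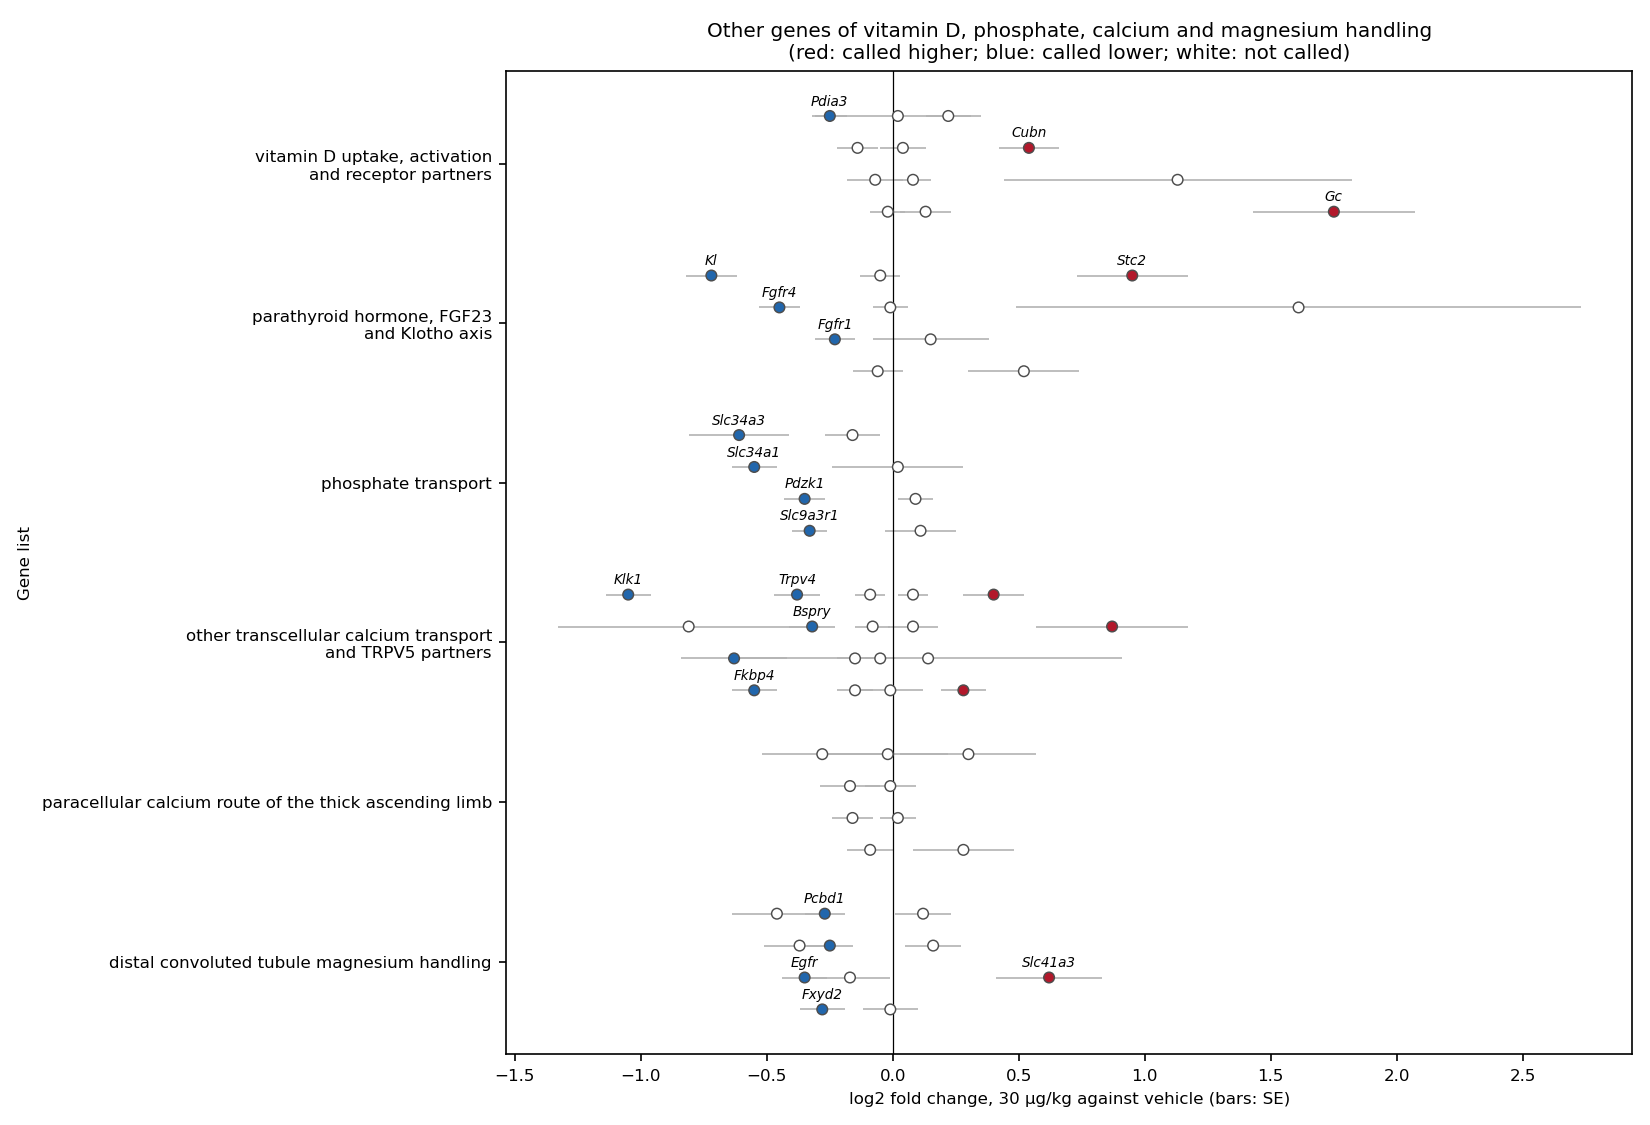
log2 fold change ± SE at 30 µg/kg against vehicle for each tested gene (points) of 6 lists of vitamin D, phosphate, calcium and magnesium handling, red where called higher, blue where called lower and white where not called. Klk1 at -1.05 and Kl at -0.72 are the lowest of the called genes, and Gc at 1.75 is the highest.

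Levels of some markers of tubule segments, endothelium, podocytes, fat and macrophages also moved with dose, and their part in the results above was not tested. The marker counts here and in the next paragraph stand beside 3.82% of all genes higher and 0.997% lower at 10 µg/kg. At 30 µg/kg the shares were 8.39% and 7.55%. Without vehicle replicates 1 and 2 they were 6.38% and 6.20% at 30 µg/kg, and 515 of 18002 genes passed in either direction at 10 µg/kg. For the thick ascending limb the summed level of 6 markers ran from 1261 to 3293 CPM (median 2201) under vehicle. At 30 µg/kg it ran from 1598 to 3127 (median 2424), and 0 of the 6 passed, with or without vehicle replicates 1 and 2. For the distal convoluted tubule the summed level of 7 markers ran from 1676 to 2462 CPM (median 1889) under vehicle and from 1642 to 2005 (median 1886) at 30 µg/kg, where 1 of the 7 was higher and 1 lower. The one that was lower, Pvalb, which encodes parvalbumin of the early distal convoluted tubule, went from 30.8 ± 8.08 to 11.3 ± 4.70 CPM (-1.45 ± 0.22, adjusted p = 1.27e-05). The one that was higher, Klhl3, rose by 0.25 (edgeR adjusted p = 0.0301), and by 0.37 without vehicle replicates 1 and 2 (0.00343). Slc12a3, the segment's defining sodium chloride cotransporter, was 1511 ± 282 and 1400 ± 151 CPM (-0.11 ± 0.09, adjusted p = 0.461). At 10 µg/kg 2 of the 7 were lower, Pvalb (-1.07 ± 0.22, adjusted p = 0.00121) and Slc12a3 (-0.30 ± 0.09, adjusted p = 0.037), the latter lost without vehicle replicates 1 and 2 (-0.11, adjusted p = 0.697).

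For the connecting tubule and principal cells 4 of 6 tested markers were lower at 30 µg/kg (3 without vehicle replicates 1 and 2), and the sum ran from 887 to 1196 CPM under vehicle and from 631 to 1119 at 30 µg/kg. Calb1 at 30 µg/kg was 435 and 354 CPM in replicates 2 and 3, whose sums were lowest (651 and 631), and 365 to 409 in the other 3. Beside the proximal genes, the S1-S2 sum ran from 11817 to 15741 CPM under vehicle and 8111 to 14014 at 30 µg/kg, with 3 of 6 lower (2 lower and 1 higher without vehicle replicates 1 and 2). Slc34a1 is itself 1 of those 6 markers, 1 of the 3 lower, and 53.7% of the sum under vehicle. Without it the sum was 5267 to 7563 CPM under vehicle and 4300 to 7503 at 30 µg/kg. The S3 sum was 89.3 to 1113 CPM at 30 µg/kg, lowest in replicate 3, the library with the most Cyp27b1 and Cyp24a1. At 30 µg/kg 2 of 4 S3 markers were lower, with and without vehicle replicates 1 and 2. At 10 µg/kg the S3 sum was 1172 to 1413 CPM and 0 of 4 markers passed. Macrophage markers summed to 89.7 to 149 CPM under vehicle, 206 to 253 at 10 µg/kg and 184 to 240 at 30 µg/kg, with 6 and 7 of 8 higher (6 higher and 1 lower at 30 µg/kg without vehicle replicates 1 and 2). Endothelial markers summed to 320 to 344 CPM under vehicle, 442 to 496 at 10 µg/kg and 436 to 505 at 30 µg/kg, with 6 and 5 of 6 higher (4 and 6 without vehicle replicates 1 and 2). Podocyte markers went from 267 to 377 CPM to 378 to 539 at 30 µg/kg, with 3 of 5 higher (2 without those libraries), and fat markers from 29.9 to 82.0 CPM to 95.0 to 207, with 1 of 5 higher and 1 lower (1 higher and 0 lower without them).

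**Figure D5:**
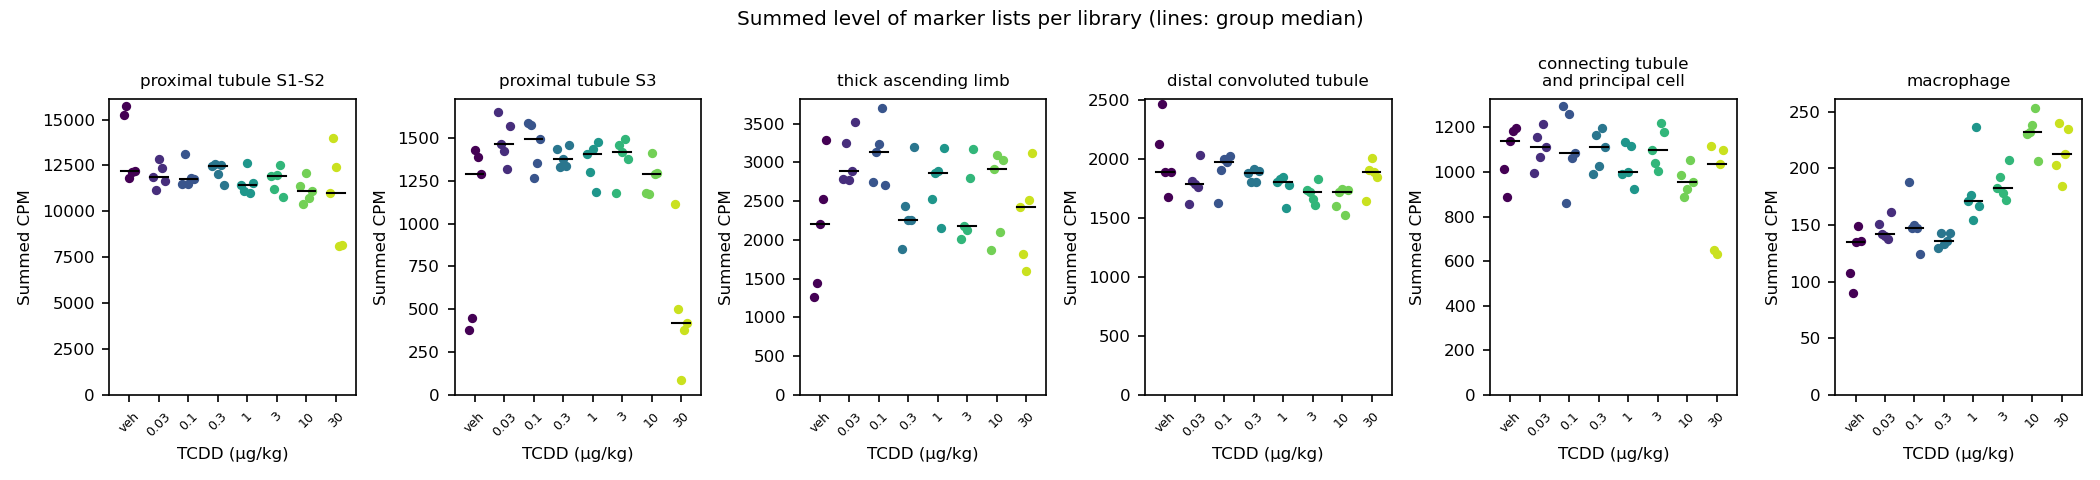
Summed CPM of 6 marker lists in every library (points), by TCDD dose in µg/kg, with lines at the group median. Vehicle replicates 1 and 2 are low for the S3 segment at 377 and 450 CPM, and the macrophage sums at 10 and 30 µg/kg lie above all vehicle libraries.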

How the data were processed

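Gene counts of 40 mouse kidney libraries were used, 5 per dose group, with groups taken from the labels. The authors deposited unstranded and stranded whole-number read counts per gene for each library. Per the submitters' processing notes, FastQC 0.11.7, Trimmomatic 0.39, STAR 2.7.3a and DESeq2 were used, and both GRCm39 and mm10 are named with no role given. Per the labels' protocols RNA integrity numbers were at least 7. The stranded columns held near-equal shares (50.4 to 51.0% sense), so the unstranded count was used. Lines naming no gene (unmapped 1.41 to 2.66%, multimapping 6.98 to 9.70%, no feature 5.28 to 7.27%, ambiguous 5.40 to 5.98%) were left out. A deposited table of log2-like values was not used. GENCODE M21 named 52083 of 55359 identifiers and gave exon lengths, and 1 of 157 listed symbols, Nherf1, was not matched (the gene was found as Slc9a3r1).

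In R 4.3.3, edgeR 4.0.16 (limma 3.58.1) quasi-likelihood F-tests with robust estimation, TMM factors and filterByExpr were fitted to all 40 libraries without covariates. Contrasts were each dose against vehicle, 30 against 10 µg/kg, and a trend over dose rank. P-values were adjusted by Benjamini-Hochberg across the 17345 genes, and a gene was called under 0.05. Intervals are the fold change ± 1.96 SE. The scripts were tested on simulated data. Alternatives were RLE size factors, no filter on low counts, each stranded column, the run of title numbers as a covariate and within each run, each contrast's 10 libraries alone, DESeq2 1.42.0, the trend without 30 µg/kg, and each library left out. Leaving out both vehicle libraries that stood apart was chosen after seeing the data.

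The members and lists were chosen with earlier results of these data known. All members are named. From the other lists the rule named at most 4 genes each, those called at the most doses first and then by p at 30 µg/kg, or, where none was called, up to 2 by lowest p. Beside each member called against vehicle stand the 3 genes with a symbol whose positive Spearman correlation was highest. Beyond it Pvalb, Klhl3, Slc12a3, Egf, Atp2b2, Slc8b1, S100a10, Sgk1, Cnnm2, Cldn19 and the neighbours of Cyp27b1 were named after their values were seen. Chi-square statistics of the 80 replicate pairs ran from 6.74 to 78.4 per degree of freedom, so no pair agreed within sampling noise. The labels do not number replicates, so numbers follow accession order, and they state 5 mice per dose. Reads carry no molecular identifiers, so counting error alone is covered by depth.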

Additional observations from a re-analysis of the deposited data

Results flagged for a closer look

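In 80 groups of 5 libraries (10 genes at 8 doses) 5 values lay apart from the rest of their group, with a gap to the nearest library of over 0.71 of the group's range, where chance gives about 4. Cyp24a1 was 195 CPM in vehicle replicate 5, with the next library at 44.9. The 1 µg/kg group held 3 of the 5: Cyp27b1 in replicate 4 (2.12 CPM against 3.59 in the next library), Vdr in replicate 3 (333 against 291) and Trpv5 in replicate 2 (13.8 against 19.8). At 0.03 µg/kg Casr stood at 44.7 CPM in replicate 5, and the next library at 37.3. The summed level of 5 adrenal cortex markers was 651 CPM in 1 µg/kg replicate 4 and 645 in 0.03 µg/kg replicate 1. Under vehicle that sum was 3.85 to 5.77 CPM, and its part in the values of these libraries was not tested. Only the Cyp24a1 library entered a result that it changed: without it Cyp24a1 passed at 30 µg/kg (2.35, edgeR adjusted p = 0.0298).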

How the results depend on the processing

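The calls of Calb1 and Slc8a1 at 10 and 30 µg/kg and of Cyp27b1 and Pth1r at 30 µg/kg held in all 8 other settings with a test and in all 10 fits without a library. Slc8a1's call at 3 µg/kg was lost in 4 of the 8 (adjusted p = 0.124 with no filter, 0.101 and 0.0783 with the stranded columns and 0.472 without vehicle replicates 1 and 2) and in 8 of 10 fits without a library, also where another member was called. Members called at 3 µg/kg (1) were 0 with no filter, 0 with the first stranded column, 0 without vehicle replicates 1 and 2, 2 with the title-number run as covariate, 2 by DESeq2, and 0 to 2 without single libraries. At 1 µg/kg (0) they were 0 to 1, the latter without vehicle replicate 5. From 10 to 30 µg/kg (0) they were 1 with the run covariate, 1 by DESeq2 and 0 to 1 without single libraries. For the trend (5) they were 2 without the 30 µg/kg group. Cyp27b1 at 10 µg/kg lost its call with no filter (adjusted p = 0.0712), either stranded column (0.0745 and 0.0562) and the run covariate (0.0507), and was 0.85 within the lower run of title numbers and 2.7 within the upper. Signs reversed for Vdr at 30 µg/kg without 30 µg/kg replicate 1 (-0.16 to 0.02 over single libraries), Atp2b1 at 30 µg/kg without vehicle replicate 4 (-0.05 to 0.11) and Trpv5's trend without the 30 µg/kg group (-0.00). The cause was not tested. Of all genes, 2766 were called at 30 µg/kg against 969 with its 10 libraries alone, 836 against 866 at 10 µg/kg, 189 against 113 at 3 µg/kg, 469 against 0 from 10 to 30 µg/kg, and 3439 against 1399 for the trend without 30 µg/kg. At 3 µg/kg 108, at 10 µg/kg 515 and at 30 µg/kg 2264 were called without vehicle replicates 1 and 2. The run covariate gave 221 genes at 3 µg/kg and 531 from 10 to 30 µg/kg, and DESeq2 gave 278 and 618. With no filter 164 genes were called at 3 µg/kg, and with the first stranded column 132. No paired analysis was possible because the labels give no replicate numbers shared between groups. Depth limits Cyp27b1 most: 35 to 74 counts per library at 1 µg/kg.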

Other observations

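Eef1akmt3, a methyltransferase gene close to Cyp27b1 on the chromosome in RefSeq's gene order, was among the 3 genes most alike to it. It stood at 5.38 ± 0.938 CPM under vehicle, 8.22 ± 1.66 at 10 µg/kg and 7.92 ± 2.80 at 30 µg/kg, and did not pass (0.55 ± 0.22 at 30 µg/kg, edgeR adjusted p = 0.083). Mettl1, which lies between the pair, was 27.4 ± 4.27 and 26.8 ± 5.91 CPM under vehicle and at 30 µg/kg (-0.04 ± 0.12, adjusted p = 0.89). The other tested neighbours, Tsfm (-0.20), Cdk4 (0.15) and Tspan31 (0.09), did not pass at 30 µg/kg (adjusted p = 0.185, 0.185 and 0.548).

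Within dose groups Cyp24a1 and Vdr, whose protein is the hormone receptor, varied together (Spearman correlation 0.61 over 40 libraries with group means removed, 0.45 without), while Cyp27b1 and Cyp24a1 did so less closely (0.26 and 0.45). These points share libraries and depth, and the difference between the correlations was not tested.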
